A study of Mus musculus with 28 samples.

Results

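Type I interferon-stimulated genes are the genes that cells switch on when an interferon of the alpha or beta type reaches their surface. The 40 genes described here were taken by symbol from the 35999 genes of the normalized count table. They are 4 factors that carry the signal, 5 sensors of foreign or misplaced nucleic acid, 3 IFIT proteins, 5 members of the oligoadenylate synthetase family, 6 genes of ISG15 and ubiquitin modification, 3 PARP genes, 7 antiviral effectors and 7 other genes of the response. The table came from bulk RNA sequencing of polyadenylated RNA of mouse retina, in work on compounds that modulate reactive astrocytes. In every mouse the right optic nerve was crushed (ONC), which cuts the axons of the retinal ganglion cells, and the left nerve was not touched (CTRL). Mice were injected intraperitoneally each day for 7 days with vehicle or with 10 mg/kg RGFP966, which inhibits histone deacetylase 3 (HDAC3), and both retinas were taken 7 days after the crush. The groups were vehicle CTRL and vehicle ONC, with 6 retinas each from 2 females and 4 males, and RGFP966 CTRL and RGFP966 ONC, with 7 retinas each from 3 females and 4 males.

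The sources used here do not give strain, genotype, age or what the vehicle held. The uncrushed eye of a crushed animal served as the control, the crush was always on the right, and no mouse without an injury entered, so side and crush cannot be told apart. The 26 libraries summed to 17700000 to 21900000 normalized counts (median 18700000), from an estimated 16100000 to 24700000 reads. Rod markers summed to between 1042710 and 2324480 normalized counts in every library. Of 7 ganglion cell markers 6 fell after crush in vehicle and in RGFP966 mice. Of the 26 libraries, 4 stood apart in neutrophil, lens or rod markers. Vehicle ONC female A had a neutrophil marker sum of 326 normalized counts against a median of 33.1 in its group. RGFP966 CTRL male A had a lens marker sum of 51766 against a median of 194, and vehicle CTRL female A one of 9098 against a median of 48.5. Vehicle CTRL male D had the highest rod sum, against a median of 1607320. Red blood cell marker sums ran from 215 to 7783, with medians of 4713 in vehicle CTRL and 724 in vehicle ONC. The medians were 895 in RGFP966 CTRL and 681 in RGFP966 ONC. RGFP966 CTRL male C, with a B cell marker sum of 105 against a median of 40.8, is not among the 4. Nor is RGFP966 ONC male D, with a neutrophil marker sum of 97.9 against a median of 44.0. The free-text description of RGFP966 CTRL female A mentions crush, while its title and condition give an uncrushed nerve, which was followed here. The ganglion cell markers of this library summed to 8460 normalized counts. Those sums were 2337 to 3969 in RGFP966 ONC and 6783 to 12068.5 in vehicle CTRL retinas.

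As background, type I interferons bind a receptor made of IFNAR1 and IFNAR2, whose Janus kinases JAK1 and TYK2 phosphorylate STAT2. With IRF9 it is part of the complex ISGF3, which binds the interferon-stimulated response element (ISRE) in the promoters of its targets. The shorter GAS element is known from the interferon gamma response. In the nervous system, microglia, astrocytes and neurons can all respond to interferon, and several of the genes below are also set by IRF1, IRF3 or other factors without it.

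The elements can be read in the promoters themselves. RefSeq promoters (GRCm38.p6, 250 bases before to 50 after each start site) were found for 30 of the 40 genes. The ISRE was searched on both strands as GAAA, any 2 bases and GAAA, and 13 of the 30 genes (43.3%) held it, against 1079 of 27025 genes with a promoter (3.99%). The GAS element, searched as TTCNNNGAA, which reads alike on both strands, was held by 7 of the 30 (23.3%) against 2582 of 27025 (9.55%). A match describes letters in this window and is neither a site of binding nor a cause, and ISRE matches can overlap each other and, in Bst2, a GAS match. The stretches shown hold the ISRE matches before the start site in genes with a single promoter in the table, with the GAS match of Irf1 as an example of that element; the GAS matches of Bst2, Oas1a, Eif2ak2 and Ifit2 are not shown. Each is written 5′ to 3′ on the strand of the gene, with the match in capitals. An ISRE on the other strand reads TTTC, any 2 bases and TTTC. They cover chr8:71537567-71537622 (minus strand, Bst2), chr19:34640765-34640833 (plus, Ifit1), chr19:34583353-34583436 (plus, Ifit3), chr4:156200855-156200916 (minus, Isg15), chr5:120907526-120907565 (minus, Oas1a), chr5:120777705-120777754 (minus, Oas3), chr12:26456543-26456592 (minus, Rsad2), chr10:128270256-128270305 (plus, Stat2) and, for the GAS match, chr11:53769904-53769952 (plus, Irf1).
Bst2: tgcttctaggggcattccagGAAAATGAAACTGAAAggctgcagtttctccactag
Ifit1: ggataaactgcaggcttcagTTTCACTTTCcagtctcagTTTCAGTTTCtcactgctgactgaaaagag
Ifit3: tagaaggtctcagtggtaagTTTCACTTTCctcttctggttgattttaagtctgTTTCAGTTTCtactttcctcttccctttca
Isg15: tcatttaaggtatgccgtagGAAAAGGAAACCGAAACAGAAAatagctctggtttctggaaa
Oas1a: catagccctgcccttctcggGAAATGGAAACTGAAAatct
Oas3: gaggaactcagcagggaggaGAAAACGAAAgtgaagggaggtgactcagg
Rsad2: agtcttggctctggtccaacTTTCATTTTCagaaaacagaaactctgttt
Stat2: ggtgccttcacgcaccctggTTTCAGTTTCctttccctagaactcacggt
Irf1 (GAS): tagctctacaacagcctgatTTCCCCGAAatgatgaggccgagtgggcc

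Crush raised most of the 40 genes in vehicle mice. All 40 passed the filter on low values (a mean of at least 10 normalized counts over the 26 libraries), and 30 of them rose and 0 fell past an adjusted p of 0.05, by limma on log2(normalized count + 1) with Benjamini-Hochberg adjustment over all 15773 genes tested. Of all genes tested, 3.69% rose and 1.65% fell in the same comparison, 5.34% together. The 40 genes were chosen with earlier results of these data known. Their shares beside those of all genes, here and below, are therefore a description and not a test. All 40 estimates were above 0, from 0.23 to 2.78 on the log2 scale, with a median of 1.25, while the median of all genes tested was -0.01. In 23 of the 40 genes every crushed retina of vehicle mice lay above every uncrushed retina, a pattern seen in 2.42% of all genes tested, and 29 of the 40 were higher in the crushed eye of all 6 mice (6.29% of all genes tested). Oas1a, Oas2, Oasl1 and Zbp1 had mean normalized counts under 10 in both uncrushed groups. They passed the filter only through their crushed retinas, so their changes after crush in either arm are not independent of that filter. Tissue RNA does not separate more RNA per cell from more cells of a type, so such rises and falls cannot be told apart from a change in the makeup of the retina.

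In RGFP966 mice 26 of the 40 genes rose after crush and 0 fell, where 3.34% of all genes tested rose and 1.33% fell, 4.67% together. All 40 estimates were again above 0, from 0.01 to 2.47 with a median of 0.79, against a median of -0.01 over all genes tested. Every crushed retina was above every uncrushed one in 13 genes (1.56% of all genes tested), and 23 genes were higher in the crushed eye of all 7 mice (3.92% of all genes tested). The threshold was passed with both injections by 24 genes, with vehicle alone by Irf9, Zbp1, Trim25, Parp9, Parp12 and Samd9l, with RGFP966 alone by Dhx58 and Ifi35, and with neither by Stat2, Irf1, Ddx58, Oas2, Oas3, Mx1, Ifi44 and Sp100. Passing in 1 arm only does not show that the arms differed; the test of the difference is given further down, and no gene passed it. Without RGFP966 CTRL female A, whose description and condition differ, 30 genes rose in vehicle and 28 in RGFP966 mice. With any 1 library left out, 676 to 891 of all genes tested passed in vehicle and 630 to 838 in RGFP966 mice. Without the 4 libraries that stood apart, an alternative chosen after seeing the data, the counts were 27 and 24. Zbp1 (0.062), Mx2 (0.22) and Samd9l (0.12) were then not called with vehicle, nor Dhx58 (0.13), Ifi27 (0.056) and Ifi35 (0.0501) with RGFP966, where Parp9 passed (0.042). With vehicle CTRL female A kept and the other 3 left out, the counts were 29 and 25. Such counts also move with the number of calls over all genes, which is printed further down only for vehicle without the 4 libraries. In males alone, with 4 mice in each arm, 24 and 15 genes rose. Zbp1, Usp18, Trim25, Parp9, Cmpk2, Mx2 and Samd9l were then not called with vehicle, nor Irf7, Ifih1, Dhx58, Ifit2, Oas1a, Oasl1, Usp18, Cmpk2, Mx2, Ifi27 and Ifi35 with RGFP966. Ifi35 was called with vehicle in males alone (0.037).

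**Figure D1:**
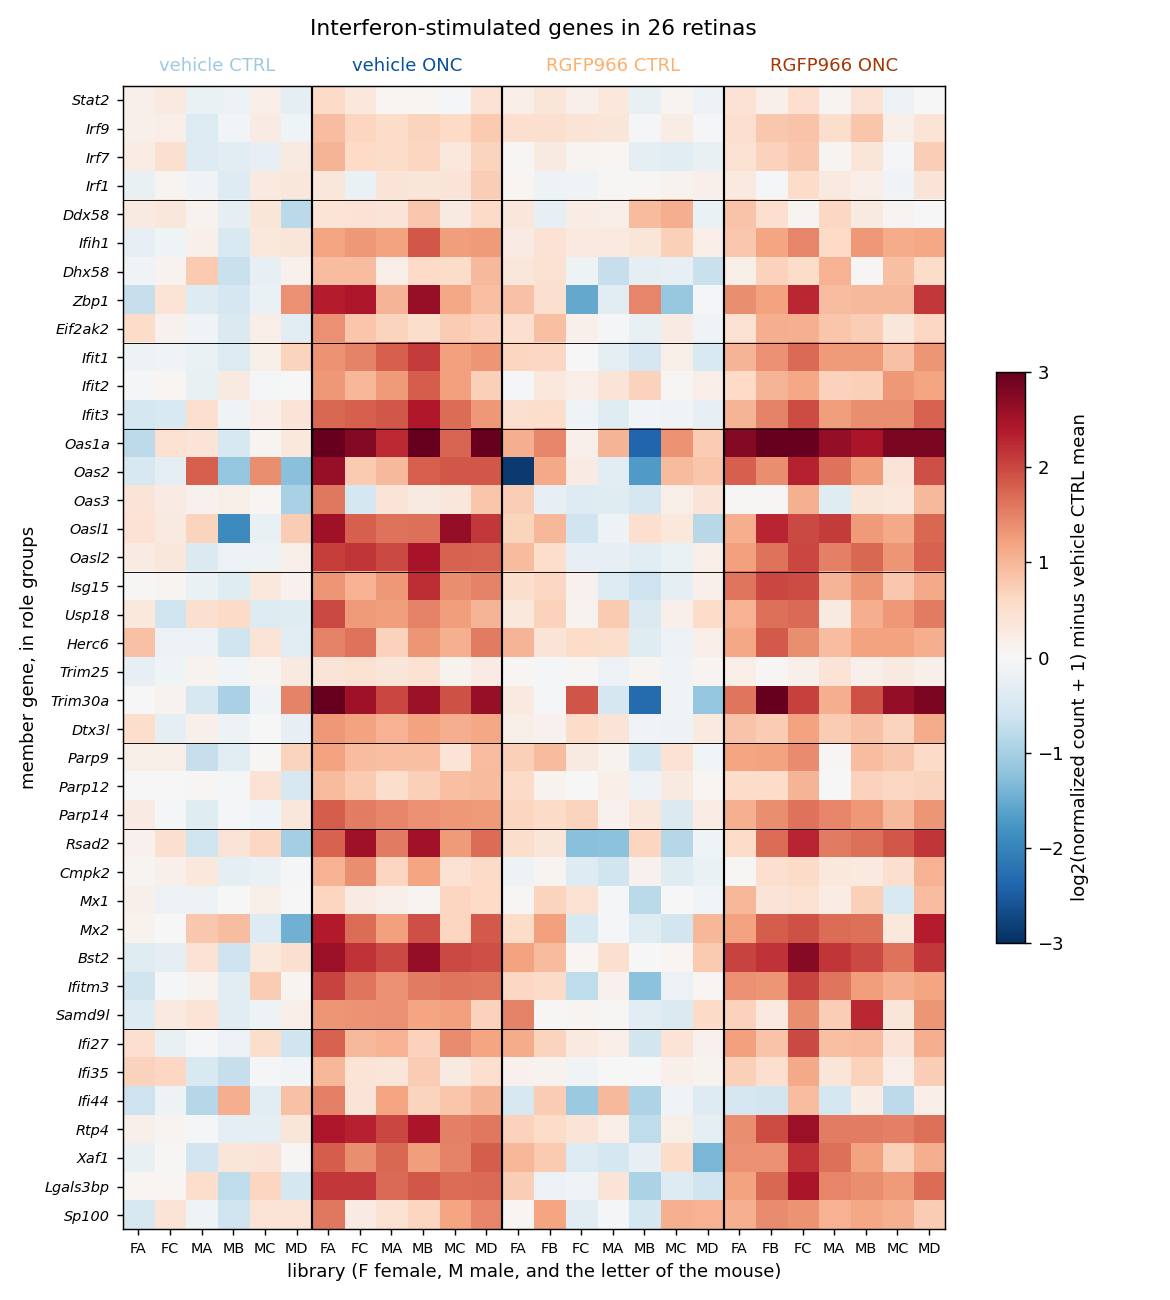
Each row is 1 of the 40 genes in its role group and each column 1 of 26 retinas, with colour for log2(normalized count + 1) minus the mean of the vehicle CTRL retinas; the colour scale ends at 3 above and below 0. The 6 vehicle ONC and 7 RGFP966 ONC columns are red for most genes, with the deepest red in Oas1a and Trim30a, while the Stat2 and Trim25 rows stay near white.

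Microglia and retinal astrocytes can carry these transcripts. Most microglia markers and some retinal astrocyte markers rose in the same crushed retinas. Of 10 microglia markers 9 rose in vehicle and 9 in RGFP966 mice. Their summed level was 1391 to 2441 normalized counts in vehicle CTRL and 3628 to 6518 in vehicle ONC, and 1719 to 2128 in RGFP966 CTRL and 3398 to 5584 in RGFP966 ONC. Markers of retinal astrocytes rose in 3 of 4 genes in vehicle and 2 of 4 in RGFP966 mice, with sums of 509.8 to 954 uncrushed and 1711 to 3050 crushed in vehicle mice and of 568 to 885 and 1415 to 2071 in RGFP966 mice. Gfap made up most of the crushed sums, with 1085 to 2131 in vehicle ONC and 908 to 1356 in RGFP966 ONC. Gfap and Aldh1l1 rose in both arms and Pdgfra with vehicle alone (adjusted p = 0.81 by limma with RGFP966). Pax2 passed in neither arm (adjusted p = 0.67 and 0.12 by limma). Of 6 Müller glia markers 2 rose and 1 fell in vehicle mice and 1 rose and 1 fell in RGFP966 mice, and of 6 rod markers 3 and 2 fell and 0 rose. The Müller glia sums overlapped, at 58087 to 69502 in vehicle CTRL, 44979 to 67256 in vehicle ONC, 55691 to 68354 in RGFP966 CTRL and 48904 to 70554 in RGFP966 ONC. The rod sums, in that order of groups, were 1501620 to 2324480, 1125400 to 1531320, 1382270 to 1669010 and 1042710 to 1594600. Of 8 markers of monocytes and other macrophages 5 were tested and 0 rose in either arm by limma, with 0 and 1 at an unadjusted p under 0.05. Their sums overlapped, at 88.3 to 192 in vehicle CTRL, 126 to 297 in vehicle ONC, 80.6 to 152 in RGFP966 CTRL and 116 to 235 in RGFP966 ONC. Of 6 neutrophil markers 1 was tested and did not pass by limma, with an unadjusted p under 0.05 in vehicle mice, and the sums were 11.6 to 33.0, 24.7 to 326, 10.6 to 44.4 and 18.4 to 97.9 in the same order of groups. Ly6g, which defines neutrophils, was listed at 0 in all 14 RGFP966 retinas and did not exceed 3.54 normalized counts in vehicle retinas. Of 7 dendritic cell markers, of which 5 were tested, Siglech, which microglia also express, was the only one to rise, by 1.26 ± 0.19 (SE) in vehicle and 1.15 ± 0.17 in RGFP966 mice, and Flt3 fell in RGFP966 mice, by 0.81 on the log2 scale. The dendritic cell sums were 419.6 to 614, 526 to 676, 446 to 559 and 495 to 652 in that order of groups. Of 10 T and NK cell markers and 5 B cell markers, 2 each were tested and 0 passed by limma, with 1 T and NK cell marker at an unadjusted p under 0.05 in RGFP966 mice. In that order of groups the T and NK cell sums were 56.9 to 111, 62.9 to 127, 83.7 to 144 and 68.7 to 108, and the B cell sums 22.0 to 51.9, 18.02 to 49.5, 28.5 to 105 and 34.1 to 49.5. Of 6 endothelial cell markers 0 passed by limma in either arm, with 1 at an unadjusted p under 0.05 in each. The endothelial sums overlapped, at 4866 to 6030.5 in vehicle CTRL, 5968 to 7363 in vehicle ONC, 4873 to 6469 in RGFP966 CTRL and 4168 to 7679 in RGFP966 ONC. The part of all these cells in the rise of the interferon-stimulated genes was not tested.

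The factors that carry the signal had the lowest median change of the 8 role groups in each arm. For Stat2, Irf9, Irf7 and Irf1 it was 0.49 in vehicle mice, where 2 of 4 rose, and 0.26 in RGFP966 mice, where 1 of 4 rose. Stat2 (chr10:128270559-128292849), a STAT of the type I and III interferon pathways, had 1035 to 1567 normalized counts in vehicle CTRL (median 1271) and 1229 to 1897 in vehicle ONC (median 1459). In RGFP966 mice Stat2 had 1093 to 1637 (median 1412) uncrushed and 1132 to 1807 (median 1409) crushed. The groups overlapped over most of their range, and the changes were 0.23 ± 0.11 (adjusted p = 0.28) and 0.10 ± 0.10 (adjusted p = 0.73). Irf9 (chr14:55603571-55610030), the DNA-binding part of ISGF3, had 312 to 491 in vehicle CTRL (median 427) and 609 to 783 in vehicle ONC (median 652), so that no value was shared. It rose by 0.69 ± 0.11 in vehicle mice (adjusted p = 6.6e-05).

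In RGFP966 mice Irf9 had 398 to 588 normalized counts uncrushed (median 531) and 468 to 744 crushed (median 597). These ranges overlapped, the change was 0.32 ± 0.10 (adjusted p = 0.068), and it passed the threshold without RGFP966 ONC female A (0.041), RGFP966 CTRL male A (0.049), RGFP966 ONC male C (0.026) or vehicle CTRL male C (0.048). Here and below, leaving out a retina of the other arm keeps the estimate and changes only the shared spread and the adjustment. Irf7 (chr7:141262706-141266481), which amplifies interferon production, had 256 to 469 in vehicle CTRL (median 338) and 422 to 688 in vehicle ONC (median 518). Only the upper uncrushed and lower crushed retinas overlapped, and Irf7 rose by 0.63 ± 0.13 (adjusted p = 0.0017). With RGFP966 it had 268 to 403 (median 345) uncrushed and 324 to 592 (median 463) crushed, a rise of 0.49 ± 0.12 (adjusted p = 0.0097) that did not pass without sex in the model (0.060). Irf1 (chr11:53770014-53778374), a factor that both interferon types induce early, had 91.0 to 152 in vehicle CTRL (median 119) and 104 to 201 in vehicle ONC (median 156). In RGFP966 mice Irf1 had 108 to 132 (median 122) uncrushed and 112 to 175 (median 146) crushed. Its ranges overlapped in both arms, with changes of 0.34 ± 0.15 (adjusted p = 0.22) and 0.21 ± 0.13 (adjusted p = 0.53).

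The sensors rose in 3 of 5 genes in each arm, with medians of 0.81 in vehicle and 0.73 in RGFP966 mice. Ifih1 (chr2:62595798-62646255) encodes MDA5, which detects long viral RNA duplexes in the cytoplasm. It had 67.4 to 119 normalized counts in vehicle CTRL (median 93.8) and 212 to 338 in vehicle ONC (median 224). In RGFP966 mice Ifih1 had 107 to 153 (median 114) uncrushed and 142 to 259 (median 209) crushed. All crushed vehicle retinas lay above the uncrushed ones, whereas the RGFP966 ranges overlapped at their ends. The rises were 1.34 ± 0.16 (adjusted p = 8.2e-07) and 0.73 ± 0.14 (adjusted p = 0.0014). Eif2ak2 (chr17:78852564-78882573), the kinase PKR that halts translation on binding RNA duplexes, had 125 to 249.98 in vehicle CTRL (median 172) and 244 to 443 in vehicle ONC (median 282). With RGFP966 it had 146 to 320.4 (median 189.9) uncrushed and 214 to 363 (median 281) crushed. A single uncrushed vehicle retina reached into the crushed range, and the RGFP966 groups shared more of theirs. Eif2ak2 rose by 0.81 ± 0.15 (adjusted p = 0.00049) and 0.52 ± 0.14 (adjusted p = 0.019), the latter call ending without RGFP966 CTRL female C (0.056), without RGFP966 ONC male A (0.050) and without sex in the model (0.098).

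Zbp1 (chr2:173206612-173218923), a sensor of Z-form nucleic acid that can start necroptosis, stood at 3.78 to 19.2 normalized counts in vehicle CTRL (median 5.33) and 13.6 to 46.9 in vehicle ONC (median 27.7). In RGFP966 mice Zbp1 had 1.67 to 20.6 (median 6.53) uncrushed and 13.7 to 36.2 (median 17.04) crushed. The crushed medians were higher, but the ranges overlapped in both arms, through vehicle CTRL male D and RGFP966 CTRL male B. These uncrushed retinas, at 19.2 and 20.6, lay above several crushed retinas of their arm. The changes of Zbp1 were 1.75 ± 0.47 (adjusted p = 0.022) and 1.44 ± 0.43 (adjusted p = 0.053). In vehicle mice the call ended with the mouse as a fixed term (0.060) and without female A's vehicle CTRL (0.064) or vehicle ONC retina (0.058), vehicle ONC female C (0.061) or vehicle ONC male B (0.069). With RGFP966 the threshold was passed without RGFP966 CTRL female A (0.042), RGFP966 CTRL male B (0.012) or vehicle CTRL male D (0.034). Dhx58, which encodes LGP2, the regulator of RIG-I and MDA5, changed by 0.69 ± 0.23 in vehicle (adjusted p = 0.094; 0.020 without vehicle CTRL male A) and 0.74 ± 0.22 with RGFP966 (adjusted p = 0.048). That last value did not withstand the mouse as a random block (0.052) or as a fixed term (0.12). Nor did it withstand the omission of any of 17 libraries (0.052 to 0.11). Some of the 17 were vehicle retinas, whose omission left the change at 0.74. The call held without RGFP966 CTRL or ONC female A, RGFP966 CTRL female B or RGFP966 ONC male B. It also held without any of the vehicle retinas of males A and D or vehicle CTRL male B. Ddx58, which encodes RIG-I, did not pass in either arm, with 0.48 ± 0.22 (adjusted p = 0.26) and 0.01 ± 0.20 (adjusted p = 0.99).

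All 3 IFIT genes, whose proteins bind viral RNA that lacks the marks of host mRNA, rose in both arms. They lie close together on chromosome 19 (chr19:34550694-34650009) in the order Ifit2, Ifit3, Ifit1. Ifit3 had 119.6 to 244 normalized counts in vehicle CTRL (median 179) and 426 to 919 in vehicle ONC (median 583). In RGFP966 mice Ifit3 had 134 to 248 (median 160.4) uncrushed and 351 to 675 (median 457) crushed. Every crushed retina was above every uncrushed one in both arms, and Ifit3 rose by 1.79 ± 0.20 (adjusted p = 4.0e-07) and 1.45 ± 0.18 (adjusted p = 3.3e-06). Ifit1 had 73.3 to 156 (median 89.2) uncrushed and 229 to 421 (median 260.0) crushed in vehicle mice. In RGFP966 mice Ifit1 had 68.8 to 154 (median 97.1) uncrushed and 181 to 319 (median 238) crushed. Its groups did not overlap in either arm, with rises of 1.54 ± 0.21 (adjusted p = 6.6e-06) and 1.23 ± 0.19 (adjusted p = 5.8e-05). Ifit2 had 87.9 to 123 (median 101) uncrushed and 167 to 363 (median 244) crushed in vehicle mice. In RGFP966 mice Ifit2 had 98.0 to 165 (median 118) uncrushed and 156 to 252 (median 208) crushed. The vehicle groups were apart and the RGFP966 groups overlapped at their ends, with rises of 1.22 ± 0.16 (adjusted p = 5.2e-06) and 0.70 ± 0.15 (adjusted p = 0.0026). Of the 31-base words in Ifit3 transcripts 61.8% are shared with the neighbouring copy Ifit3b, so reads of the pair could be split either way.

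In the oligoadenylate synthetase family, whose enzymes make the short oligoadenylates that activate RNase L, 3 of 5 genes rose in each arm, with medians of 2.03 and 1.53. Oasl2 (chr5:114896936-114912234), an OAS-like protein with ubiquitin-like domains, had 153 to 263 normalized counts in vehicle CTRL (median 212) and 698 to 1164 in vehicle ONC (median 854). With RGFP966 it had 167 to 407 (median 183) uncrushed and 494 to 836 (median 652) crushed. The groups were far apart in vehicle mice and did not meet with RGFP966, and the rises of 2.03 ± 0.17 (adjusted p = 3.4e-09) and 1.499 ± 0.16 (adjusted p = 1.9e-07) had the smallest adjusted p of the 40 genes in either arm. Oas1a (chr5:120896256-120907521), an enzyme of the family, had 2.01 to 6.14 in vehicle CTRL (median 4.97) and 16.4 to 57.4 in vehicle ONC (median 38.8). In RGFP966 mice Oas1a had 0 to 13.2 (median 9.49) uncrushed and 27.0 to 55.9 (median 35.7) crushed. No uncrushed retina reached the lowest crushed one, and the rises were 2.78 ± 0.46 (adjusted p = 0.00015) and 2.42 ± 0.42 (adjusted p = 0.00036). Oas1a shares 68.8% of its 31-base words with other genes, mainly Oas1g, so its reads are not its own alone.

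Oasl1 (chr5:114923240-114937915), known to restrain translation of Irf7 mRNA in mice, had 0.51 to 8.45 normalized counts in vehicle CTRL (median 6.18) and 16.2 to 33.8 in vehicle ONC (median 20.9). In RGFP966 mice Oasl1 had 2.18 to 10.2 (median 5.99) uncrushed and 11.004 to 26.6 (median 17.5) crushed. Its groups did not overlap in either arm, and it rose by 2.06 ± 0.40 (adjusted p = 0.0011) and 1.53 ± 0.37 (adjusted p = 0.011). The enzymes Oas2 and Oas3 did not pass. Oas2 changed by 1.64 ± 0.61 (adjusted p = 0.13) and 1.77 ± 0.56 (adjusted p = 0.073; 0.040 without RGFP966 CTRL female B and 0.0496 without RGFP966 ONC male C), and Oas3 by 0.48 ± 0.33 (adjusted p = 0.52) and 0.37 ± 0.30 (adjusted p = 0.65). Oas3, which lies between Oas2 and Oas1a (chr5:120730333-120907521), had a promoter match to the ISRE as well, as shown above.

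ISG15 is a ubiquitin-like protein that is joined to other proteins, and the genes around it rose in 6 of 6 cases in vehicle (median 1.33) and 5 of 6 in RGFP966 mice (median 0.94). Isg15 itself (chr4:156199424-156200818), with 3 overlapping ISRE matches in its promoter, had 20.4 to 33.7 normalized counts in vehicle CTRL (median 27.7) and 56.3 to 126 in vehicle ONC (median 70.2). In RGFP966 mice Isg15 had 17.1 to 41.3 (median 29.0) uncrushed and 47.6 to 109 (median 68.6) crushed. The crushed retinas lay above all uncrushed ones in both arms, and the rises were 1.46 ± 0.23 (adjusted p = 6.2e-05) and 1.39 ± 0.21 (adjusted p = 4.1e-05). Usp18 (chr6:121245906-121270917), the protease that removes ISG15 and blocks signalling at IFNAR2, had 18.6 to 42.9 in vehicle CTRL (median 29.0) and 58.9 to 115 in vehicle ONC (median 70.3). In RGFP966 mice Usp18 had 21.0 to 50.03 (median 35.8) uncrushed and 34.5 to 94.9 (median 72.2) crushed. The vehicle groups were apart and the RGFP966 groups overlapped. Usp18 rose by 1.38 ± 0.26 (adjusted p = 0.00072) and 0.92 ± 0.24 (adjusted p = 0.018), the latter not passing without RGFP966 ONC female C (0.051), RGFP966 CTRL male B (0.053) or RGFP966 ONC male D (0.052).

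Dtx3l (chr16:35926511-35939151), an E3 ubiquitin ligase that works as a pair with PARP9, had 64.0 to 111 normalized counts in vehicle CTRL (median 72.8) and 159.8 to 191 in vehicle ONC (median 176). With RGFP966 it had 69.7 to 112 (median 87.0) uncrushed and 122 to 179 (median 139.9) crushed. Neither arm showed overlap, and Dtx3l rose by 1.16 ± 0.14 (adjusted p = 1.3e-06) and 0.71 ± 0.13 (adjusted p = 0.00052). Herc6 (chr6:57581000-57664632), the main ISG15 ligase in mice, had 45.4 to 129 (median 61.4) uncrushed and 112 to 215 (median 186) crushed with vehicle. In RGFP966 mice Herc6 had 54.2 to 141 (median 91.5) uncrushed and 133 to 250.01 (median 162) crushed. The uppermost uncrushed retinas overlapped the lowest crushed ones, and the rises were 1.29 ± 0.20 (adjusted p = 5.6e-05) and 0.95 ± 0.18 (adjusted p = 0.00099). Another transcript on the same strand overlaps 13.7% of the exon bases of Herc6, and one overlaps 13.9% of those of Rtp4. Trim30a, a TRIM protein that dampens Toll-like receptor signalling in mice, rose by 2.50 ± 0.45 (adjusted p = 0.00045) and 2.47 ± 0.42 (adjusted p = 0.0002). Trim25, the ubiquitin ligase that activates RIG-I, rose by 0.34 ± 0.08 in vehicle mice (adjusted p = 0.0095; 0.058 with the mouse as a fixed term and 0.069 in a fit of the compared groups alone) and changed by 0.21 ± 0.08 with RGFP966 (adjusted p = 0.14).

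The PARP genes encode ADP-ribosyltransferases, and 3 of 3 rose in vehicle (median 0.88) and 1 of 3 in RGFP966 mice (median 0.62). Parp14 (chr16:35832874-35871544) had 96.9 to 157 normalized counts in vehicle CTRL (median 119.5) and 299.8 to 441 in vehicle ONC (median 332). In RGFP966 mice Parp14 had 91.9 to 198 (median 156) uncrushed and 243 to 383 (median 312) crushed. The crushed and uncrushed retinas did not overlap in either arm, with rises of 1.46 ± 0.14 (adjusted p = 3.2e-08) and 0.997 ± 0.13 (adjusted p = 4.7e-06). Parp12 (chr6:39086410-39118349) had 168 to 316 (median 236) uncrushed and 337 to 455 (median 420.3) crushed in vehicle mice, without overlap. In RGFP966 mice Parp12 had 208 to 347 (median 250.1) uncrushed and 230.1 to 475 (median 363) crushed, with overlap. It rose by 0.80 ± 0.14 with vehicle (adjusted p = 0.0004) and changed by 0.43 ± 0.13 with RGFP966 (adjusted p = 0.059, passing without RGFP966 CTRL female A (0.030), RGFP966 ONC male A (0.0092), or the vehicle CTRL retinas of male C (0.038) or male D (0.038)).

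Parp9 (chr16:35938470-35972605), the partner of Dtx3l, had 57.4 to 149 normalized counts in vehicle CTRL (median 101) and 125 to 217 in vehicle ONC (median 177). In RGFP966 mice Parp9 had 64.3 to 181 (median 113) uncrushed and 96.7 to 251 (median 179.5) crushed. Both arms overlapped; Parp9 rose by 0.88 ± 0.20 with vehicle (adjusted p = 0.0061) and changed by 0.62 ± 0.19 with RGFP966 (adjusted p = 0.053). The latter passed without RGFP966 CTRL female B (0.035), RGFP966 ONC male A (0.016), RGFP966 CTRL male C (0.037), or the vehicle CTRL retinas of male A (0.043) or male D (0.020). Dtx3l and Parp9 lie on opposite strands and share 458 bases of exon (8% of the exon bases of Dtx3l and 9.4% of those of Parp9), and since the use of strand is not stated, reads from that stretch cannot be assigned to either.

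**Figure D2:**
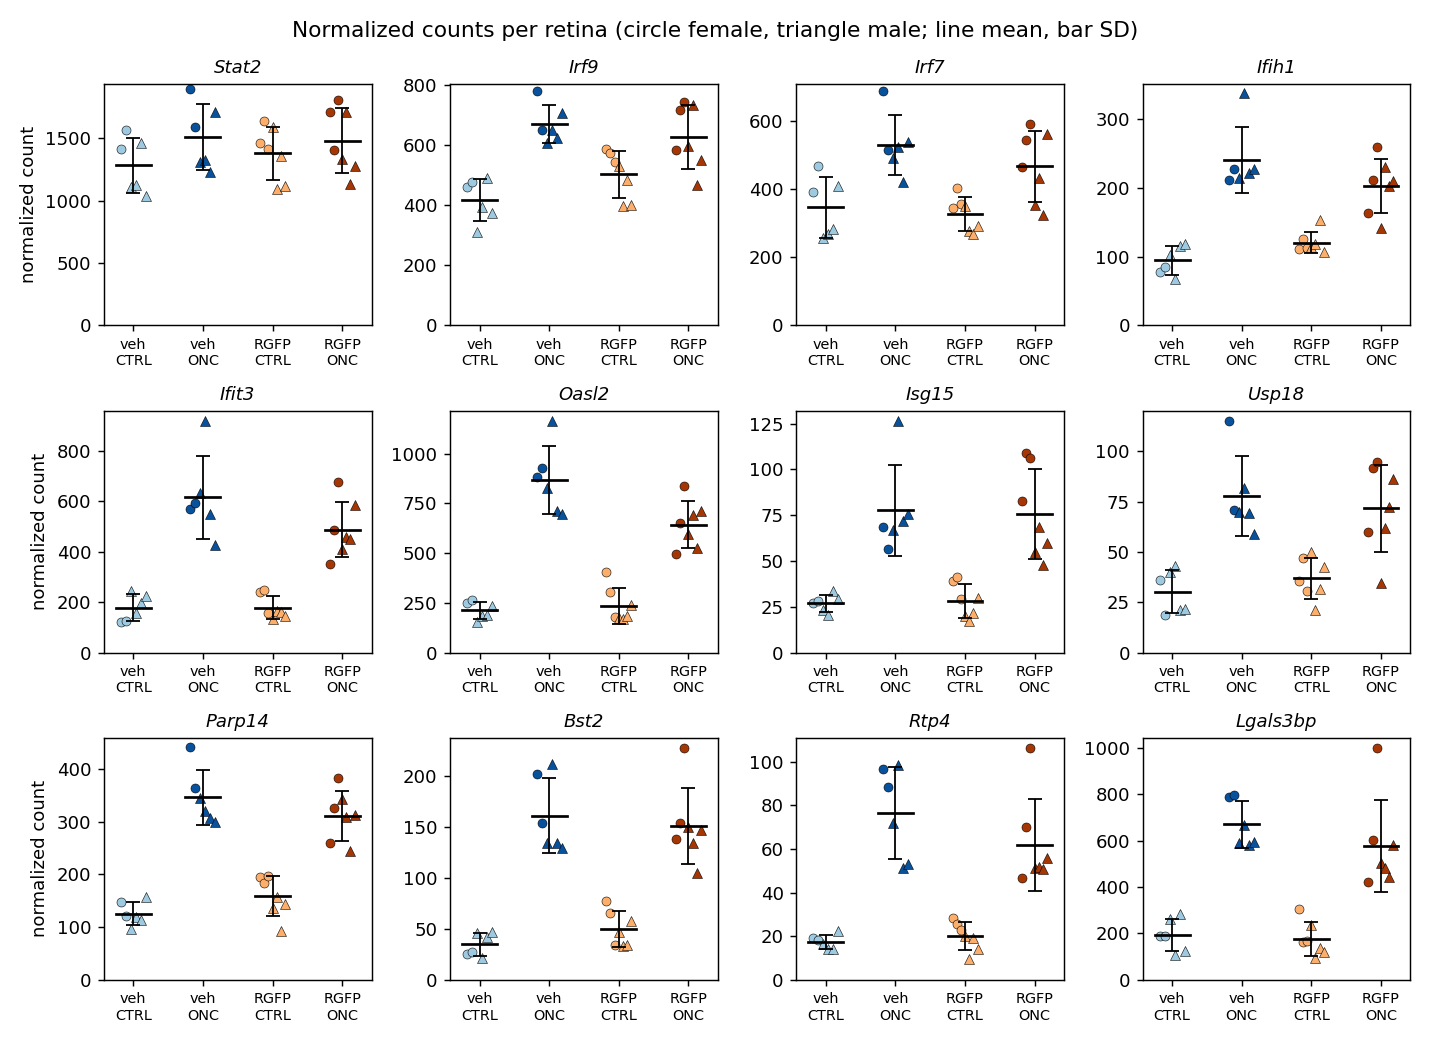
Normalized counts on linear axes from 0 in each retina of the 4 groups for 12 genes, with circles for females, triangles for males, lines for means and bars for SD. In Parp14, Oasl2, Ifit3, Bst2, Rtp4, Isg15 and Lgals3bp every crushed retina is above every uncrushed one with vehicle and with RGFP966, while the groups of Stat2 overlap.

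Antiviral effectors rose in 6 of 7 cases in vehicle (median 1.61) and 5 of 7 in RGFP966 mice (median 1.37). Bst2 (chr8:71534255-71537456) encodes tetherin, which holds budding virus at the cell surface. It had 21.3 to 46.6 normalized counts in vehicle CTRL (median 34.7) and 129.8 to 212 in vehicle ONC (median 144). In RGFP966 mice Bst2 had 33.5 to 77.5 (median 46.9) uncrushed and 105 to 227 (median 147) crushed. The groups were apart in both arms, with rises of 2.21 ± 0.23 (adjusted p = 1.4e-07) and 1.61 ± 0.21 (adjusted p = 6.4e-06). Ifitm3 (chr7:141009586-141010770), a membrane protein that blocks entry of viruses from endosomes, had 76.8 to 199 (median 119) uncrushed and 305 to 479 (median 354) crushed with vehicle. In RGFP966 mice Ifitm3 had 48.8 to 181 (median 121) uncrushed and 249.7 to 479 (median 292) crushed. Here too the crushed retinas were all above the uncrushed ones, and the rises were 1.62 ± 0.25 (adjusted p = 5.4e-05) and 1.52 ± 0.23 (adjusted p = 4.6e-05). Of the 31-base words of Ifitm3 transcripts 20.5% also occur in other genes. Cmpk2 (chr12:26469204-26479837), a mitochondrial nucleotide kinase, had 132 to 202 (median 163) uncrushed and 221 to 427 (median 293) crushed in vehicle mice. In RGFP966 mice Cmpk2 had 107 to 175 (median 141) uncrushed and 165 to 334 (median 226) crushed. Its vehicle groups did not overlap and its RGFP966 groups did, with rises of 0.88 ± 0.17 (adjusted p = 0.00087) and 0.68 ± 0.15 (adjusted p = 0.0064).

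Rsad2, the neighbour of Cmpk2, encodes viperin, which makes a chain-ending nucleotide, and it rose by 1.89 ± 0.36 (adjusted p = 0.001) and 1.95 ± 0.34 (adjusted p = 0.00028). Mx2, which GENCODE lists as a polymorphic pseudogene, rose by 1.61 ± 0.39 with vehicle (adjusted p = 0.011; 0.22 without the 4 libraries that stood apart and 0.12 with vehicle CTRL female A kept) and by 1.37 ± 0.36 with RGFP966 (adjusted p = 0.022), the latter call ending without RGFP966 CTRL female C (0.063), RGFP966 CTRL male C (0.054) or RGFP966 ONC male D (0.067). Mx1, a dynamin-like GTPase and textbook interferon target, did not pass in either arm. Its values were 55.8 to 72.0 normalized counts in vehicle CTRL and 66.9 to 99.8 in vehicle ONC. In RGFP966 mice Mx1 had 35.7 to 100.4 uncrushed and 45.5 to 127 crushed. All ranges overlapped, and the changes were 0.39 ± 0.21 (adjusted p = 0.38) and 0.43 ± 0.20 (adjusted p = 0.29). Samd9l, an inhibitor of translation, rose by 1.19 ± 0.30 with vehicle (adjusted p = 0.014) and changed by 0.80 ± 0.28 with RGFP966 (adjusted p = 0.11). That value was 0.015 without RGFP966 CTRL female A, its highest uncrushed retina, and 0.049 without RGFP966 ONC female B.

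The other 7 genes rose in 4 cases in vehicle (median 1.17) and in 5 in RGFP966 mice (median 0.77). Rtp4 (chr16:23520291-23614222), a chaperone of receptors that also restrains the interferon response in mice, had 14.1 to 22.5 normalized counts in vehicle CTRL (median 17.3) and 51.1 to 98.3 in vehicle ONC (median 80.3). In RGFP966 mice Rtp4 had 9.64 to 28.5 (median 19.9) uncrushed and 46.5 to 106 (median 51.7) crushed. No crushed retina fell into the uncrushed range, and the rises were 2.05 ± 0.22 (adjusted p = 2.0e-07) and 1.60 ± 0.20 (adjusted p = 3.1e-06). Lgals3bp (chr11:118392751-118402092), a secreted partner of galectins, had 106 to 285 (median 190.3) uncrushed and 583 to 799 (median 631) crushed with vehicle. In RGFP966 mice Lgals3bp had 94.5 to 304 (median 162) uncrushed and 422 to 998 (median 502) crushed. The groups were apart in both arms, with rises of 1.86 ± 0.23 (adjusted p = 2.4e-06) and 1.75 ± 0.21 (adjusted p = 1.9e-06). Xaf1 (chr11:72301629-72313733), which binds the apoptosis inhibitor XIAP, had 40.8 to 80.7 (median 62.6) uncrushed and 149 to 219.9 (median 190.0) crushed in vehicle mice. In RGFP966 mice Xaf1 had 23.0 to 124 (median 51.2) uncrushed and 102 to 278 (median 159) crushed. Its vehicle groups did not overlap, its RGFP966 groups overlapped, and the rises were 1.59 ± 0.28 (adjusted p = 0.0004) and 1.40 ± 0.26 (adjusted p = 0.00073).

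Ifi27, a mitochondrial and nuclear envelope protein, rose by 1.17 ± 0.22 in vehicle mice (adjusted p = 0.00075) and by 0.73 ± 0.20 with RGFP966 (adjusted p = 0.033). The RGFP966 call ended without RGFP966 CTRL female C (0.079), male B (0.091) or male D (0.057), without RGFP966 ONC female C (0.099), male A (0.056), male B (0.057) or male D (0.077), and without sex in the model (0.077). Ifi35, a partner of NMI, changed by 0.55 ± 0.18 with vehicle (adjusted p = 0.065). It passed in males alone (0.037) and without vehicle CTRL female A (0.028), vehicle CTRL female C (0.036) or vehicle ONC female C (0.045). With RGFP966 it rose by 0.57 ± 0.16 (adjusted p = 0.037). This rise was not called with the mouse as a fixed term (0.088), nor without RGFP966 CTRL female A (0.075), female B (0.077), female C (0.099) or male A (0.051), nor without RGFP966 ONC female C (0.097), male B (0.079) or male D (0.090), although its crushed and uncrushed RGFP966 retinas did not overlap. An antisense gene covers 16.8% of the exon bases of Ifi35. Sp100, a nuclear body protein, did not pass with 0.93 ± 0.29 (adjusted p = 0.062; 0.034 without vehicle ONC female C, 0.047 without RGFP966 CTRL male B and 0.049 without vehicle ONC male A) and 0.77 ± 0.27 (adjusted p = 0.12), nor did Ifi44, with 0.94 ± 0.38 (adjusted p = 0.19) and 0.04 ± 0.35 (adjusted p = 0.98).

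**Figure D3:**
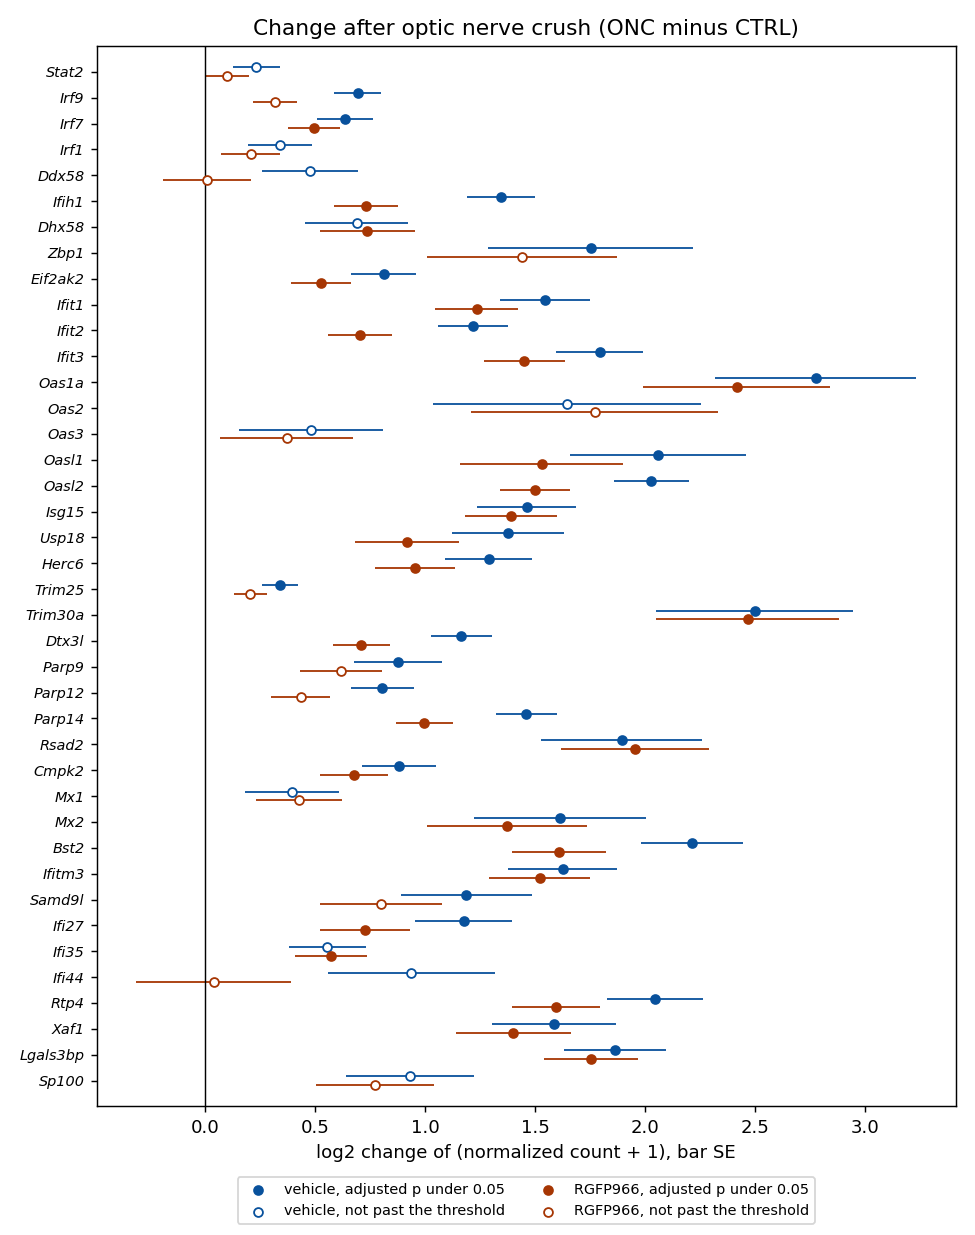
Change after crush (ONC minus CTRL) in log2(normalized count + 1) for the 40 genes in vehicle (blue) and RGFP966 mice (brown), with bars for 1 SE and filled points for an adjusted p under 0.05. All estimates lie at or right of 0, with 30 filled points for vehicle and 26 for RGFP966.

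The rise was seen in each animal. The mean of log2(normalized count + 1) over the 40 genes was 5.80 to 6.19 in vehicle CTRL (median 6.08), 7.14 to 7.64 in vehicle ONC (median 7.28), 5.74 to 6.54 in RGFP966 CTRL (median 6.08) and 6.85 to 7.56 in RGFP966 ONC (median 7.11). No uncrushed retina reached a crushed one. Within a mouse the crushed eye exceeded the uncrushed eye by 0.52 in RGFP966 female A at the least and by 1.65 in vehicle male B at the most, and it did so in 13 of 13 mice. The vehicle mice had differences of 1.58 and 1.15 in females A and C and of 1.07, 1.65, 0.95 and 1.21 in males A to D. The RGFP966 mice had 0.52, 0.69 and 1.52 in females A to C and 0.89, 1.36, 0.73 and 1.19 in males A to D, so that the arms overlapped. RGFP966 female A and female B, the mice with the smallest differences, also had the highest uncrushed retinas, each the highest of its group for 13 of the 40 genes. Among crushed retinas, RGFP966 ONC female C was the highest of its group for 25 of 40 genes and RGFP966 ONC male C the lowest for 18, and vehicle ONC female A was the highest for 17 and vehicle ONC male C the lowest for 14.

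**Figure D4:**
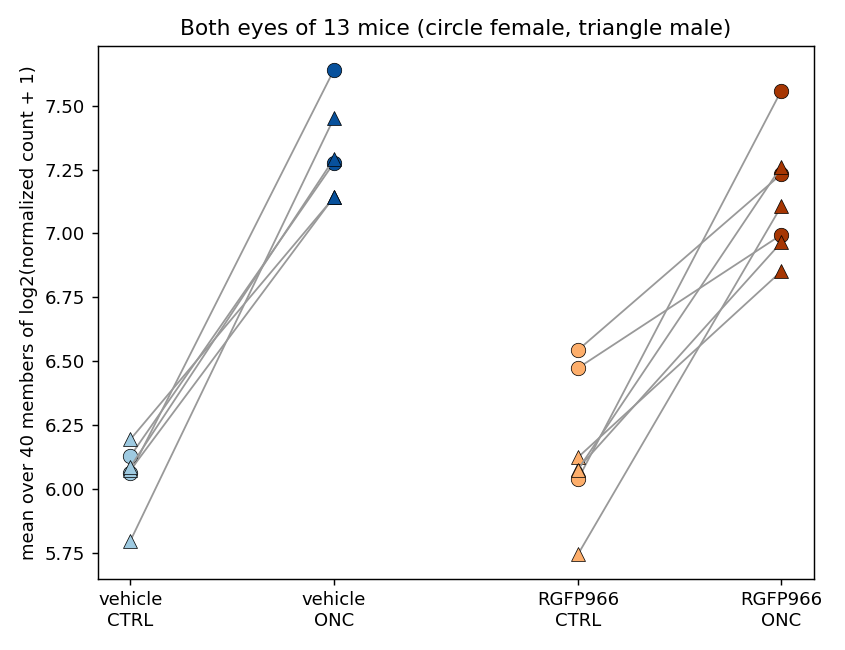
Mean of log2(normalized count + 1) over the 40 genes in both retinas of 13 mice, with a line joining the eyes of a mouse, circles for females and triangles for males. Every line rises from CTRL to ONC, by 0.52 to 1.65, and the 2 highest uncrushed points belong to RGFP966 females A and B.

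Whether RGFP966 changed these genes was asked in the crushed and in the uncrushed eyes. In crushed eyes 0 of 40 genes passed by limma (0% of all genes tested), 4 had an unadjusted p under 0.05 (2.55% of all genes tested), and the median difference, RGFP966 minus vehicle, was -0.18 with 4 of 40 estimates above 0, against a median of -0.004 over all genes tested. The 95% intervals of single genes lay within -1.82 to 1.09. Ifi44, an interferon-induced protein of little known function, had 31.7 to 69.4 normalized counts in vehicle ONC (median 46.2) and 13.4 to 46.0 in RGFP966 ONC (median 16.6). Most of the RGFP966 retinas were low but the ranges overlapped, and the difference was -1.07 ± 0.37 (95% interval -1.82 to -0.31; adjusted p = 1 in limma). Oasl2, with the levels given above, differed by -0.46 ± 0.17 (-0.80 to -0.12; adjusted p = 1) and Cmpk2 by -0.43 ± 0.16 (-0.76 to -0.10; adjusted p = 1). No gene of the 40 had crushed groups that did not overlap, a pattern that 0.0317% of all genes tested showed.

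In uncrushed eyes 0 of 40 passed by limma (0% of all genes tested), 4 had an unadjusted p under 0.05 (4.96% of all genes tested), 26 of 40 estimates were above 0, and the median difference was 0.07, against -0.0008 over all genes tested. The single-gene intervals lay within -1.44 to 1.37. Ifih1 differed by 0.37 ± 0.15 (0.06 to 0.68; adjusted p = 0.913 in limma), Irf9 by 0.24 ± 0.10 (0.03 to 0.46; adjusted p = 0.913) and Bst2 by 0.49 ± 0.22 (0.03 to 0.94; adjusted p = 0.913). All 3 had higher medians in RGFP966 CTRL than in vehicle CTRL, with overlapping ranges, and none of the 40 genes had groups apart (0.12% of all genes tested). The crush comparisons and these drug comparisons share their groups, so their values are not independent of each other.

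The difference between the crush changes of the 2 arms was tested as an interaction. None of the 40 genes passed by limma (0% of all genes tested), while 6 had an unadjusted p under 0.05 (2.07% of all genes tested). Of the 40 changes 35 were larger with vehicle, and the median interaction was -0.30 against -0.0011 over all genes tested, with intervals within -1.96 to 1.82. The 40 genes were measured in the same mice, so counts of signs here and in the drug comparisons are not counts of independent results. Ifih1 had -0.61 ± 0.21 (-1.05 to -0.18; adjusted p = 1), Irf9 -0.38 ± 0.15 (-0.68 to -0.08; adjusted p = 1) and Parp14 -0.46 ± 0.19 (-0.86 to -0.07; adjusted p = 1 in limma). In each of them the uncrushed RGFP966 retinas were somewhat higher and the crushed ones somewhat lower by median than with vehicle. Sex did not separate the crush changes past the threshold either, with 0 of 40 called (0% of all genes tested) and 0 at an unadjusted p under 0.05 by limma (2.42% of all genes tested), a median of 0.01 for males minus females and intervals within -2.64 to 1.75. The smallest p belonged to Oasl2 (0.42 ± 0.24; -0.08 to 0.92), Trim25 (-0.14 ± 0.11; -0.35 to 0.08) and Usp18 (-0.44 ± 0.37; -1.21 to 0.33), with an adjusted p of 1 in each.

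**Figure D5:**
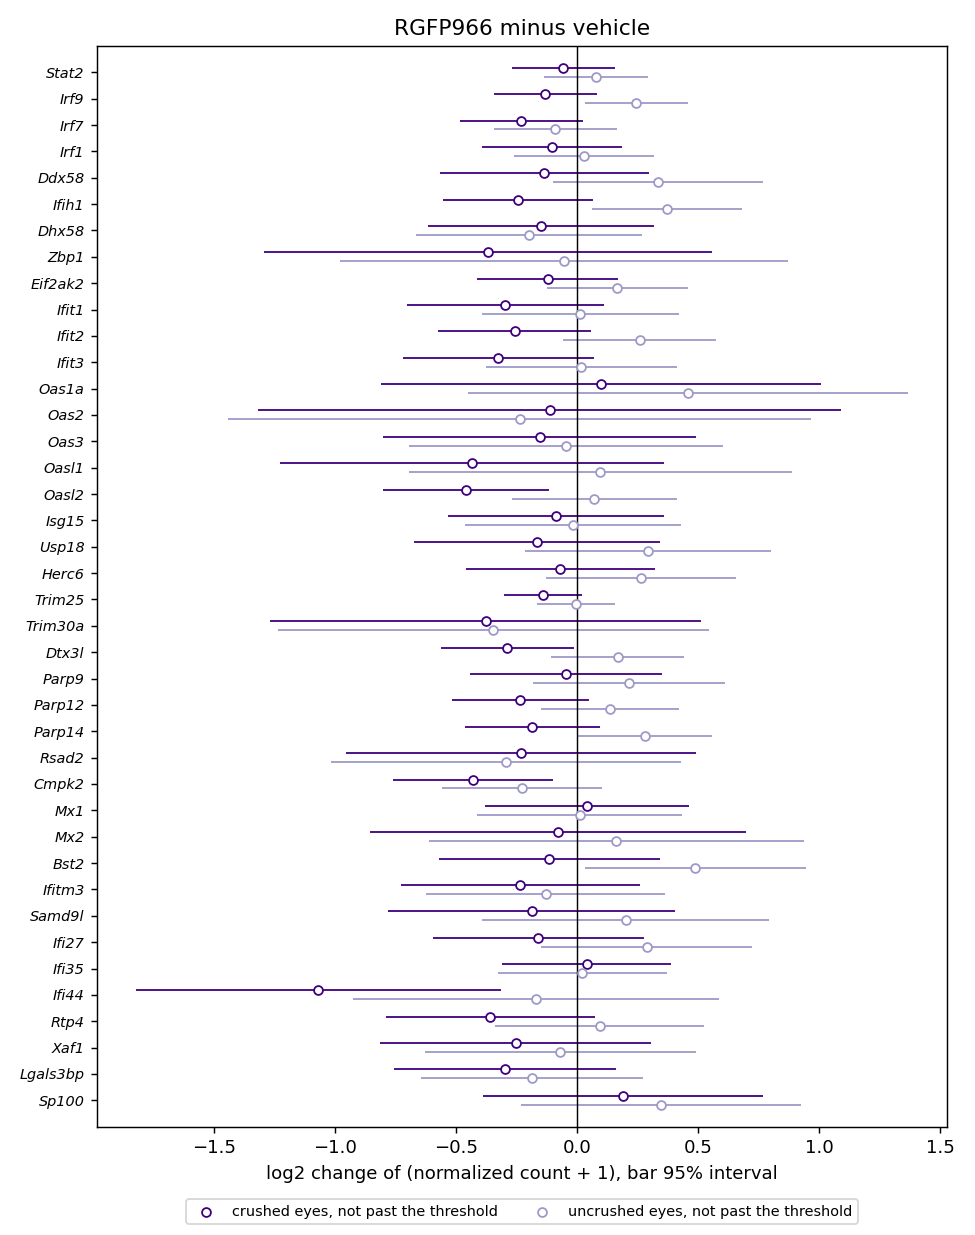
Difference RGFP966 minus vehicle in log2(normalized count + 1) with 95% intervals for the 40 genes, in crushed (dark) and uncrushed (light) eyes. No gene passed an adjusted p of 0.05; in crushed eyes 4 of 40 estimates are above 0, in uncrushed eyes 26 of 40.

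The genes upstream of the 40 were followed through lists of ligands, receptors, regulators and sensors. All 14 interferon ligands searched were under the filter. Ifnb1, the gene of interferon beta, was listed at 0 in 25 of 26 libraries and at 1.003 normalized counts in a vehicle CTRL retina, Ifng, of interferon gamma, was at 0 in 23 with a highest value of 2.02, and 8 of the 14 were at 0 in all 26. These values say that the ligand transcripts were not detectable or nearly so at this depth in whole retina at day 7.

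Ifnar1, a receptor chain of type I interferon, had 984 to 1089.7 normalized counts in vehicle CTRL and 931 to 1057 in vehicle ONC. In RGFP966 mice Ifnar1 had 1022 to 1112 uncrushed and 883 to 1249.9 crushed. Its ranges overlapped in both arms, with changes of -0.06 ± 0.06 (adjusted p = 0.73) and -0.04 ± 0.06 (adjusted p = 0.81). The other chain, Ifnar2, rose by 0.63 ± 0.18 with vehicle (adjusted p = 0.039) and changed by 0.53 ± 0.17 with RGFP966 (adjusted p = 0.074). Il10rb, a chain of the receptors of IL-10 and type III interferon that was chosen after its value was seen, changed by 0.25 ± 0.18 (adjusted p = 0.549) and rose by 0.63 ± 0.17 (adjusted p = 0.023), and Ifngr2, of the interferon gamma receptor, did not pass with 0.30 ± 0.18 (adjusted p = 0.437) and 0.24 ± 0.16 (adjusted p = 0.558). Among 6 negative regulators, Socs3 rose by 1.37 ± 0.35 (adjusted p = 0.014) and 1.19 ± 0.32 (adjusted p = 0.026), and Ptpn6, the phosphatase SHP-1 of blood-derived cells and microglia, by 1.06 ± 0.21 (adjusted p = 0.0012) and 1.32 ± 0.19 (adjusted p = 2.8e-05). Socs1, the inhibitor most tied to interferon receptors, did not pass with 0.64 ± 0.52 (adjusted p = 0.61) and 0.11 ± 0.48 (adjusted p = 0.96), nor did Ptpn2, with 0.12 ± 0.07 (adjusted p = 0.467) in vehicle mice.

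Of 15 tested genes that sense nucleic acid or carry that signal towards interferon, 5 rose with vehicle and 7 with RGFP966. Irf8, a factor of microglia and other myeloid cells, had 31.5 to 46.4 normalized counts in vehicle CTRL (median 44.7) and 107 to 218 in vehicle ONC (median 147). In RGFP966 mice Irf8 had 32.6 to 61.4 (median 39.3) uncrushed and 105 to 189.8 (median 138) crushed. Its groups were apart in both arms, and it rose by 1.84 ± 0.20 (adjusted p = 2.3e-07) and 1.77 ± 0.18 (adjusted p = 1.1e-07). Ifi204, a DNA sensor of the PYHIN family, rose by 1.69 ± 0.29 (adjusted p = 0.00027) and 1.42 ± 0.27 (adjusted p = 0.00094), and Tmem173, which encodes STING, the adaptor of cytoplasmic DNA sensing, by 1.43 ± 0.26 (adjusted p = 0.00048) and 0.82 ± 0.24 (adjusted p = 0.043). Irf3, the factor that STING and MAVS activate by phosphorylation, did not pass with -0.07 ± 0.11 (adjusted p = 0.84) and -0.07 ± 0.10 (adjusted p = 0.84). Of 6 genes that clear or edit nucleic acid, 0 passed in either arm by limma, with 1 at an unadjusted p under 0.05 in each. The smallest p were those of the RNase H2 subunits Rnaseh2b (-0.30 ± 0.12; adjusted p = 0.151) and Rnaseh2a (-0.33 ± 0.20; adjusted p = 0.461) and the RNA editor Adar (0.12 ± 0.07; adjusted p = 0.43) in vehicle mice.

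Further interferon-stimulated genes outside the 40 rose in 12 of 26 tested with vehicle (median 0.80) and 9 of 26 with RGFP966 (median 0.72), and 0 fell. Shisa5, a protein of the endoplasmic reticulum linked to apoptosis, had 97.7 to 154 normalized counts uncrushed and 245 to 329 crushed in vehicle mice. In RGFP966 mice Shisa5 had 83.9 to 158 uncrushed and 159.8 to 233 crushed. These groups did not overlap, and Shisa5 rose by 1.14 ± 0.14 (adjusted p = 2.6e-06) and 0.71 ± 0.13 (adjusted p = 0.00069). Ifit3b, the copy of Ifit3, rose by 1.5003 ± 0.20 (adjusted p = 7.7e-06) and 1.22 ± 0.19 (adjusted p = 5.8e-05), and Oas1b, a paralogue of Oas1a, by 1.31 ± 0.23 (adjusted p = 0.00031) and 1.02 ± 0.21 (adjusted p = 0.0024).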

How the data were processed

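Polyadenylated RNA of retina was sequenced from both eyes of 14 mice, 28 samples in all. Per the submitters' processing notes, kallisto 0.46.1 and the mm10 build were used and counts were normalized with DESeq2. Its version, trimming and batches are not stated in the sources used here. The deposited table holds this signal, DESeq2-normalized counts made by the authors, for 35999 genes. A column name occurred 2 times, so 2 columns were not used here, which left 13 mice and 26 libraries. Symbols turned into dates (26, with 0.115% of the total) match no gene described here. Of values up to 20 reads, 45.6 to 64.4% lay within 0.05 of whole reads, so reads were not recovered and no count test was run.

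Values were transformed as log2(value + 1), which understates changes of genes with low values, and genes with a mean of at least 10 normalized counts were tested (15773). Models of the 4 groups plus sex, and of 8 groups for sex, were fitted in limma 3.58.1 under R 4.3.3, using a trended prior. P-values are two-sided and adjusted by Benjamini-Hochberg over all genes tested, with 0.05 as the threshold. The procedure was tested on simulated data with changes placed in vehicle ONC alone and read in both crush comparisons. The drug, interaction and sex comparisons and the pairing of eyes were not part of that simulation. Positions are from GENCODE vM21 (mm10), and promoters from RefSeq (GRCm38.p6).

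The members, lists, tests and alternatives were chosen with earlier results of these data known. Values are printed for up to 3 genes of each role list with the smallest p after crush in vehicle mice, for Stat2, Irf9, Irf7, Irf1, Isg15 and Usp18, for the 3 with the smallest p in each drug, interaction and sex comparison, and for up to 3 of each upstream list plus Ifnar1, Ifnar2, Ifnb1, Ifng, Socs1, Irf3 and Irf8; 1 gene of these lists is not reported here. The 2 eyes of a mouse are paired by the labels, which number left and right retinas; after removal of group means their values correlated by -0.30 to 0.21 (median -0.03), and the block was run as an alternative. Other alternatives changed the pseudocount, filter, scaling, covariates, spread and libraries.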

Additional observations from a re-analysis of the deposited data

Results flagged for a closer look

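In 17 of the 160 sets of retinas (40 genes in 4 groups), in 12 genes, the highest or the lowest retina lay far from the nearest of the others relative to the whole range of its group. For normally distributed values chance gives such a gap in about 1 group in 20. Normalized counts need not be so distributed, and the same retinas recur across genes, so that rate is only a rough guide. None of these values was left out of the results above.

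RGFP966 ONC female C was the far highest retina of its group in 4 genes, with 227 normalized counts of Bst2, 436 of Ifi27, 106 of Rtp4 and 998 of Lgals3bp. Vehicle ONC female A, the library with the high neutrophil markers, was the far highest in 3, with 443 of Eif2ak2, 239 of Trim30a and 479 of Ifitm3. Vehicle ONC male B stood above its group with 338 of Ifih1 and 126.5 of Isg15. Vehicle CTRL male D, the library with the highest rod marker sum, had the highest Zbp1 at 19.2 and the highest Trim30a at 65.6, but the lowest Oas3 at 7.54. Samd9l was apart in 3 groups, lowest in vehicle ONC male D at 74.2, highest in RGFP966 CTRL female A at 130.05 and highest in RGFP966 ONC male B at 221. RGFP966 CTRL female C was highest for Trim30a at 87.2, and RGFP966 CTRL male C was highest for Ifih1 at 153.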

How the results depend on the processing

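Under the alternatives run, 23 of the 30 rises in vehicle and 14 of the 26 in RGFP966 mice kept their call each time, and no called change reversed. In males alone, a smaller sample, 24 genes rose with vehicle and 15 with RGFP966, and the counts over all genes fell from 842 to 304 and from 737 to 292. With 1 library left out, 29 to 31 of the 40 genes rose with vehicle (676 to 891 of all genes) and 21 to 29 with RGFP966 (630 to 838). The drug, interaction and sex comparisons called 0 genes in every alternative that could be fitted. When libraries were scaled to an equal total, the median over all genes after crush in vehicle mice went from -0.01 to 0.10 and the share of rises among all calls from 69.1 to 91% (71.5 to 85.4% with RGFP966); the medians of the 40 genes were then 1.37 and 0.86. Without the 4 libraries that stood apart, 514 of all genes were called with vehicle. Signs of uncalled estimates of the 40 genes changed in some alternatives, 0 times in vehicle and 20 times in RGFP966 mice for crush, 35 times for the drug in crushed and 95 in uncrushed eyes, 91 times for the interaction and 114 for sex. Genes with few counts, such as Oas2 and Zbp1, have the widest errors.

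With the replicate block of the mouse as a random term, 30 genes rose with vehicle and 25 with RGFP966, and as a fixed term 28 and 24. Counts over all genes are not printed for these fits. A shift in these counts therefore cannot be told apart from a shift in the number of calls at large. The block ended the calls of Zbp1, Trim25, Dhx58 and Ifi35, printed beside them, and of no other gene; the drug comparisons lie between mice and could not be fitted with the fixed term.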
